A study of Macaca fascicularis with 9 samples.

Results

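The genes described here encode splicing factors, many of them found in nuclear speckles. They include the scaffold proteins SON and SRRM2, the SR-related SRRM1 and SRRM4, the SR proteins (SRSF), the CLK kinases and U2AF2. The SF3A and SF3B complexes, proteins of single snRNPs (SNRNP), the PRPF proteins and the hnRNP proteins complete the list. Features were chosen by symbol alone, as every feature whose name matched those families, and not by a measured place in speckles. This gave 56 of the 29128 features in the matrix. All 56 passed the filter on low counts in each comparison between groups. SRSF7, HNRNPC, U2AF1 and SNRNP70 were also to be named, but no feature carried these symbols, so they were not analysed here. Of the 29128 features, 14893 carried a symbol, and the families are not complete.

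The data are UMI counts of single nuclei from frozen thalamus of 9 female cynomolgus monkeys, with 3 animals in each of 3 groups. A UMI (unique molecular identifier) marks 1 captured RNA molecule. The ASO group received an antisense oligonucleotide against MALAT1 by the intrathecal route, at 4 mg in 1 dose. The OTV group received OTV:MALAT1 by vein, at 30 mpk in 4 doses, and the saline group received 4 doses of saline by vein. All animals were sampled 2 weeks after their final dose. No group received saline intrathecally, so route, number of doses and agent cannot be told apart between the ASO group and the others. The labels list the animals separately, so p-values between groups rest on the spread between animals. The interaction test and the MALAT1 split below compare sums within each animal instead. Their p-values rest on how those differences vary between animals.

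Nuclear speckles are bodies between the chromosomes where splicing factors are stored and released to genes being transcribed. SON and SRRM2 form their scaffold, and SR proteins, which bind exonic enhancers, gather there when CLK and SRPK kinases have not phosphorylated them heavily. U2AF and SF3B recognize the end of an intron and its branch point, and the PRPF and SNRNP proteins act at several steps, from early recognition of the intron to the tri-snRNP and the catalytic spliceosome. The hnRNP proteins coat nascent RNA and often oppose SR proteins at splice sites. MALAT1 is a long noncoding RNA concentrated in speckles, which binds SR proteins but is not needed for the speckle to form. Many transcripts of SR and hnRNP genes are spliced to unproductive forms by their own proteins, so an RNA level need not follow a protein level.

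The matrix held 79994 nuclei in the authors' cell types, and 760 of 79232 barcode sequences occurred in more than 1 animal. Totals were between 19981249 and 98850459 UMIs per animal, and the median depth per nucleus lay between 2579 and 7791 UMIs. OTV animal 3 had the lowest median per nucleus, and saline animal 3 the lowest total. Each type had its own markers at their highest mean level: 5 of 5 for oligodendrocytes, 5 of 5 for oligodendrocyte precursor cells (OPCs), 6 of 6 for myeloid nuclei, 6 of 6 for astrocytes and 5 of 5 for neurons. Myeloid nuclei also held endothelial markers (FLT1, PECAM1 and VWF), given here in CPM (counts per 1000000 UMIs of that type). They summed to 469.8 to 707 CPM in saline, 763 to 889.7 in ASO and 185 to 741 in OTV animals. In neurons they summed to 3.94 to 399, 11.2 to 1002 and 30.7 to 943, and 2 of the 3 had their highest mean there. Several libraries stood apart in ways their labels do not give. Mitochondrial transcripts summed to 47.3 to 288 CPM of oligodendrocytes in saline, 3.80 to 8.03 in ASO and 547 to 1426 in OTV animals. A regional score from astrocytes (telencephalic LHX2 and EMX2 minus diencephalic IRX2, IRX3, IRX5 and OTX2, in log2 units, chosen after seeing the data) was 0.59, -2.69 and 4.41 in saline animals, -3.41, -1.93 and 3.95 in ASO animals and -3.47, -3.45 and -3.06 in OTV animals. The part of these measures in the results below was not tested, except where a value with and without them is given. MALAT1, the target, took 6.59% ± 0.245 (SD, n = 3) of the UMIs of oligodendrocytes in saline animals, 4.89% ± 0.761 after ASO and 3.48% ± 0.462 after OTV:MALAT1. By edgeR the OTV group was lower than saline in oligodendrocytes (log2 fold change -0.87, adjusted p = 0.00305), and no other group difference of MALAT1 was called in the 4 types. In OPCs, myeloid nuclei and astrocytes the OTV log2 fold changes against saline were -0.43, -0.90 and -0.51 (edgeR adjusted p of 0.0526, 0.0709 and 0.179). The OTV shares there were 2.75 to 3.04%, 1.81 to 1.85% and 3.74 to 4.60%. They lay below the saline shares of 3.22 to 4.61%, 3.11 to 3.47% and 4.66 to 7.46%. The single call is therefore not read as a fall in oligodendrocytes alone.

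Levels were first compared across the 5 cell types, in CPM within each animal. Because the types were made by clustering these same counts, the levels are a description with no test, and different genes are not compared with each other. Of the 56 genes, 31 had their highest mean in myeloid nuclei, 10 in astrocytes, 8 in oligodendrocytes, 4 in OPCs and 3 in neurons. The same count over all features was not made here, so these numbers are not read as particular to splicing factors. Some orders were near ties. For SF3A3 and PRPF38A, myeloid nuclei exceeded the next type in 4 of 9 animals. The lowest mean fell in neurons for 23 genes, in OPCs for 12, in astrocytes for 10, in oligodendrocytes for 8 and in myeloid nuclei for 3. Summed over the 56 genes, the level in saline animals was 6004 to 6482 CPM in myeloid nuclei, against 4898 to 5271 in oligodendrocytes, 4414 to 4765 in OPCs and 4932 to 5258 in astrocytes. The myeloid range lay above the other 3. Median depth in saline animals was 3129 to 4450 UMIs per nucleus in myeloid nuclei. It was 4172 to 6908 in oligodendrocytes, 5974 to 9273 in OPCs and 6523 to 10147 in astrocytes. Astrocyte cluster 12, at 1935 UMIs, held 6250 CPM (median over the 5 animals with at least 20 nuclei) against 5090 in cluster 6, at 8312 (9 animals). Oligodendrocyte cluster 8, at 3081.5, held 5599 (8 animals), and myeloid cluster 7, at 3222, held 6685 (9 animals). These medians pool the groups and do not rest on the same animals. The part of depth in the order of types was not tested. Neurons rest on 18 and 17 nuclei in ASO animals 1 and 2 and on 23 in saline animal 2. In some animals they also held endothelial markers. Their regional markers differed between animals too. Striatal markers (PDE10A, DRD1 and DRD2) summed to 364 to 6546 CPM in saline, 264 to 4414 in ASO and 254 to 505 in OTV animals. Thalamic markers (TCF7L2, LEF1 and SLC17A6) summed to 81.3 to 479, 48.6 to 717 and 338 to 695. Levels in neurons are therefore less certain.

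The widest difference between types was that of SRRM4, the neuronal SR-related protein that promotes microexons. It averaged 276 ± 90.8 CPM (SD, n = 9) in neurons and 5.62 ± 5.30, 4.79 ± 4.98, 3.15 ± 1.43 and 2.86 ± 1.43 in astrocytes, myeloid nuclei, oligodendrocytes and OPCs. The neuronal range, 153 to 452, lay apart from all others, and the glial levels overlapped with each other. HNRNPF, an hnRNP that binds G-rich runs, averaged 128 ± 17.1 in myeloid nuclei and 49.5 ± 5.26 in oligodendrocytes, the next in order, with no overlap. It was lowest in OPCs, at 31.6 ± 4.58. HNRNPH1, its close relative, averaged 195 ± 18.6 in myeloid nuclei, 102 ± 7.22 in OPCs and 61.5 ± 15.7 in neurons, and the myeloid range of 176 to 239 again lay above every other type. HNRNPM, which regulates alternative exons, averaged 269 ± 56.5 in myeloid nuclei and 119 ± 11.3 in oligodendrocytes, the next in order, and was lowest in neurons at 104 ± 22.8. Its levels in the 4 types other than myeloid nuclei overlapped.

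SF3A1, the large subunit of SF3A, averaged 32.3 ± 10.1 CPM in astrocytes and 20.7 ± 4.65 in myeloid nuclei, and astrocytes were the higher type in 9 of 9 animals although the ranges overlap. In neurons it averaged 9.79 ± 5.30. SON averaged 614 ± 228 in astrocytes, 523 ± 167 in myeloid nuclei, 363 ± 133 in OPCs, 306 ± 61.8 in oligodendrocytes and 208 ± 68.9 in neurons. Astrocytes exceeded myeloid nuclei in 9 of 9 animals, and no neighbouring pair in that order had separate ranges. HNRNPA2B1, an hnRNP A/B protein of RNA transport and splicing, averaged 703 ± 91.1 in astrocytes and 665 ± 51.3 in oligodendrocytes, and astrocytes were higher in 5 of 9 animals. Its neuronal level, 268 ± 52.5, lay below the ranges of all glial types. SNRNP35, a protein of the minor U11/U12 spliceosome, averaged 27.0 ± 13.2 in oligodendrocytes and 10.8 ± 7.72 in neurons, with overlapping ranges throughout.

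**Figure D1:**
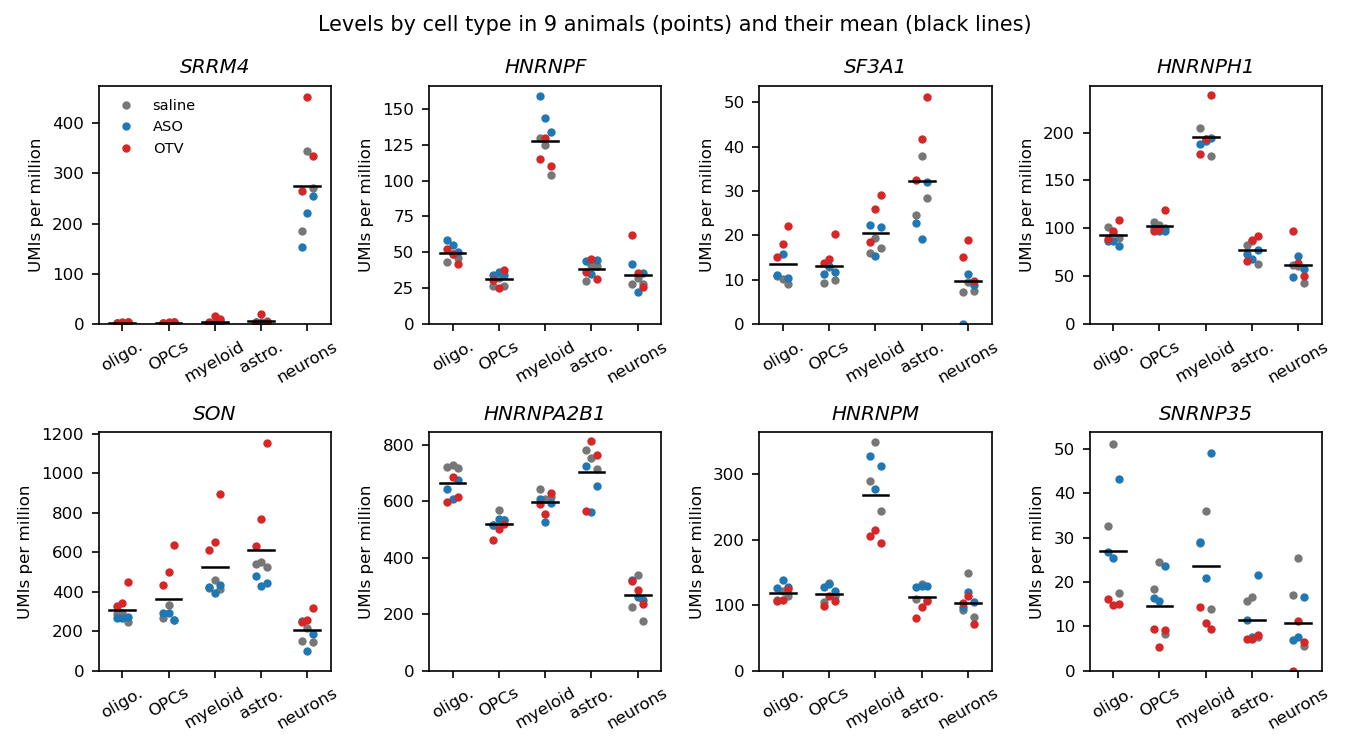
Levels of the 8 splicing factor genes with the greatest ratio of highest to lowest cell type mean (CPM within the type, vertical axis) in oligodendrocytes, OPCs, myeloid nuclei, astrocytes and neurons. Points are the 9 animals colored by group and black lines their means; SRRM4 in neurons lies between 153 and 452, apart from all glial types.

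The next comparison asked whether the transcripts differed between treated and saline animals within a cell type. UMIs were summed per animal and type, all genes were fitted together with edgeR, and calls required an adjusted p under 0.05 in edgeR's quasi-likelihood test. In ASO against saline, 0 of 56 genes were called in oligodendrocytes, OPCs, myeloid nuclei and astrocytes, where 0.394%, 0.262%, 0.197% and 0.0147% of all genes tested were called. At an unadjusted p under 0.05 in edgeR the counts were 3, 1, 1 and 1. Over all genes they were 2393 of 20036, 1432 of 14894, 1311 of 12667 and 830 of 13608. DESeq2's Wald test also called 0 in each type. The median log2 fold change of the 56 genes was 0.04, 0.07, 0.03 and -0.05, against 0.01, 0.01, -0.00342 and -0.000224 over all genes tested. The smallest unadjusted p was that of SRSF6, an SR protein, in oligodendrocytes. SRSF6 stood at 68.1, 76.0 and 81.9 in saline animals, 62.1, 61.9 and 66.0 in ASO animals and 89.6, 94.5 and 91.2 in OTV animals. The ASO animals lay below the saline animals without overlap (log2 fold change -0.29, SE 0.09, adjusted p = 0.244, edgeR).

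In OTV against saline, 18 of 56 genes were called in oligodendrocytes (12 higher, 6 lower), where 19.2% of all genes were called. OPCs had 18 calls (13 higher, 5 lower) beside 22.1% of all genes. Myeloid nuclei had 10 (7 higher, 3 lower) beside 12.02%, and astrocytes had 11 (8 higher, 3 lower) beside 15.4%. As shares of the 56 genes these are 32.1%, 32.1%, 17.9% and 19.6%. Of all genes, 7.52%, 10.2%, 4.76% and 6.27% were called higher in the 4 types and 11.7%, 11.9%, 7.26% and 9.12% lower. The median log2 fold change of the 56 genes was 0.15, 0.15, 0.03 and 0.14, against -0.02, -0.01, -0.03 and -0.02 over all genes. DESeq2's Wald test called 20, 19, 10 and 13 of the 56.

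In all 4 types CLK2, SF3B1, SRRM2 and U2AF2 rose and SRSF2 and SRSF12 fell. PRPF40B, SON, SRRM1 and SRSF11 rose in 3 types, and HNRNPA1, PRPF6, SNRNP200 and SRSF6 rose in 2. CLK3, HNRNPH2 and SRSF10 fell in 2 types. The remaining calls, each in 1 type, were HNRNPDL, HNRNPUL1, PRPF8 and SF3A1 (higher) and HNRNPH3, HNRNPM and SNRNP35 (lower). A test of the interaction between cell type and treatment, added after seeing the data, was run with edgeR (DESeq2 not run). It called 1 of the 56 in OTV against saline (SRSF12) beside 3.53% of all genes. In OTV against ASO it called 1 (PRPF40B) beside 10.4%, and in ASO against saline 0 beside 0.957%. For ASO against saline 1 gene had an unadjusted p under 0.05 in edgeR, and the number over all genes is not given here. In the fits of OTV against saline by type, no gene was called in opposite directions, and 32 of the 56 were called in no type. Of the 57 calls in 24 genes, 20 calls in 9 genes were made in every fit, with each of the 9 animals left out in turn and with every other setting tried. These were SRRM2 and U2AF2 in all 4 types, CLK2 in oligodendrocytes, myeloid nuclei and astrocytes, SF3B1 and PRPF40B in oligodendrocytes and OPCs, SON in OPCs and myeloid nuclei, SRSF12 in oligodendrocytes, and CLK3 and PRPF6 in OPCs. Without OTV animal 3, which had the fewest UMIs per nucleus, the counts in oligodendrocytes, OPCs, myeloid nuclei and astrocytes fell to 9, 9, 4 and 3. Leaving out saline animal 1 gave 11, 9, 4 and 4, and leaving out saline animal 2 gave 7, 11, 4 and 4. Without OTV animal 2 OPCs, myeloid nuclei and astrocytes had 11, 5 and 7, and astrocytes also had 6 without saline animal 3, 7 without ASO animal 1 and 6 without ASO animal 2. Without saline animal 3, which stands apart in the regional score, the 4 counts were 15, 16, 11 and 6. With the regional score as a term in the model they were 9, 13, 8 and 7. Restricting oligodendrocytes to nuclei of 2000 to 5000 UMIs, chosen after seeing the data, gave 18 calls, and the same in myeloid nuclei gave 9. Depth still differed within that window, with a median of 2863 UMIs in oligodendrocytes of OTV animal 3 and 3831.5 to 4409.5 in the other 8 animals. In myeloid nuclei it was 2832.5 and 2514.5 in OTV animals 2 and 3 and 3132 to 4104 in the other 7. The shares of all genes called in these refits are not given here. The changed counts are therefore not read as particular to the 56 genes.

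**Figure D2:**
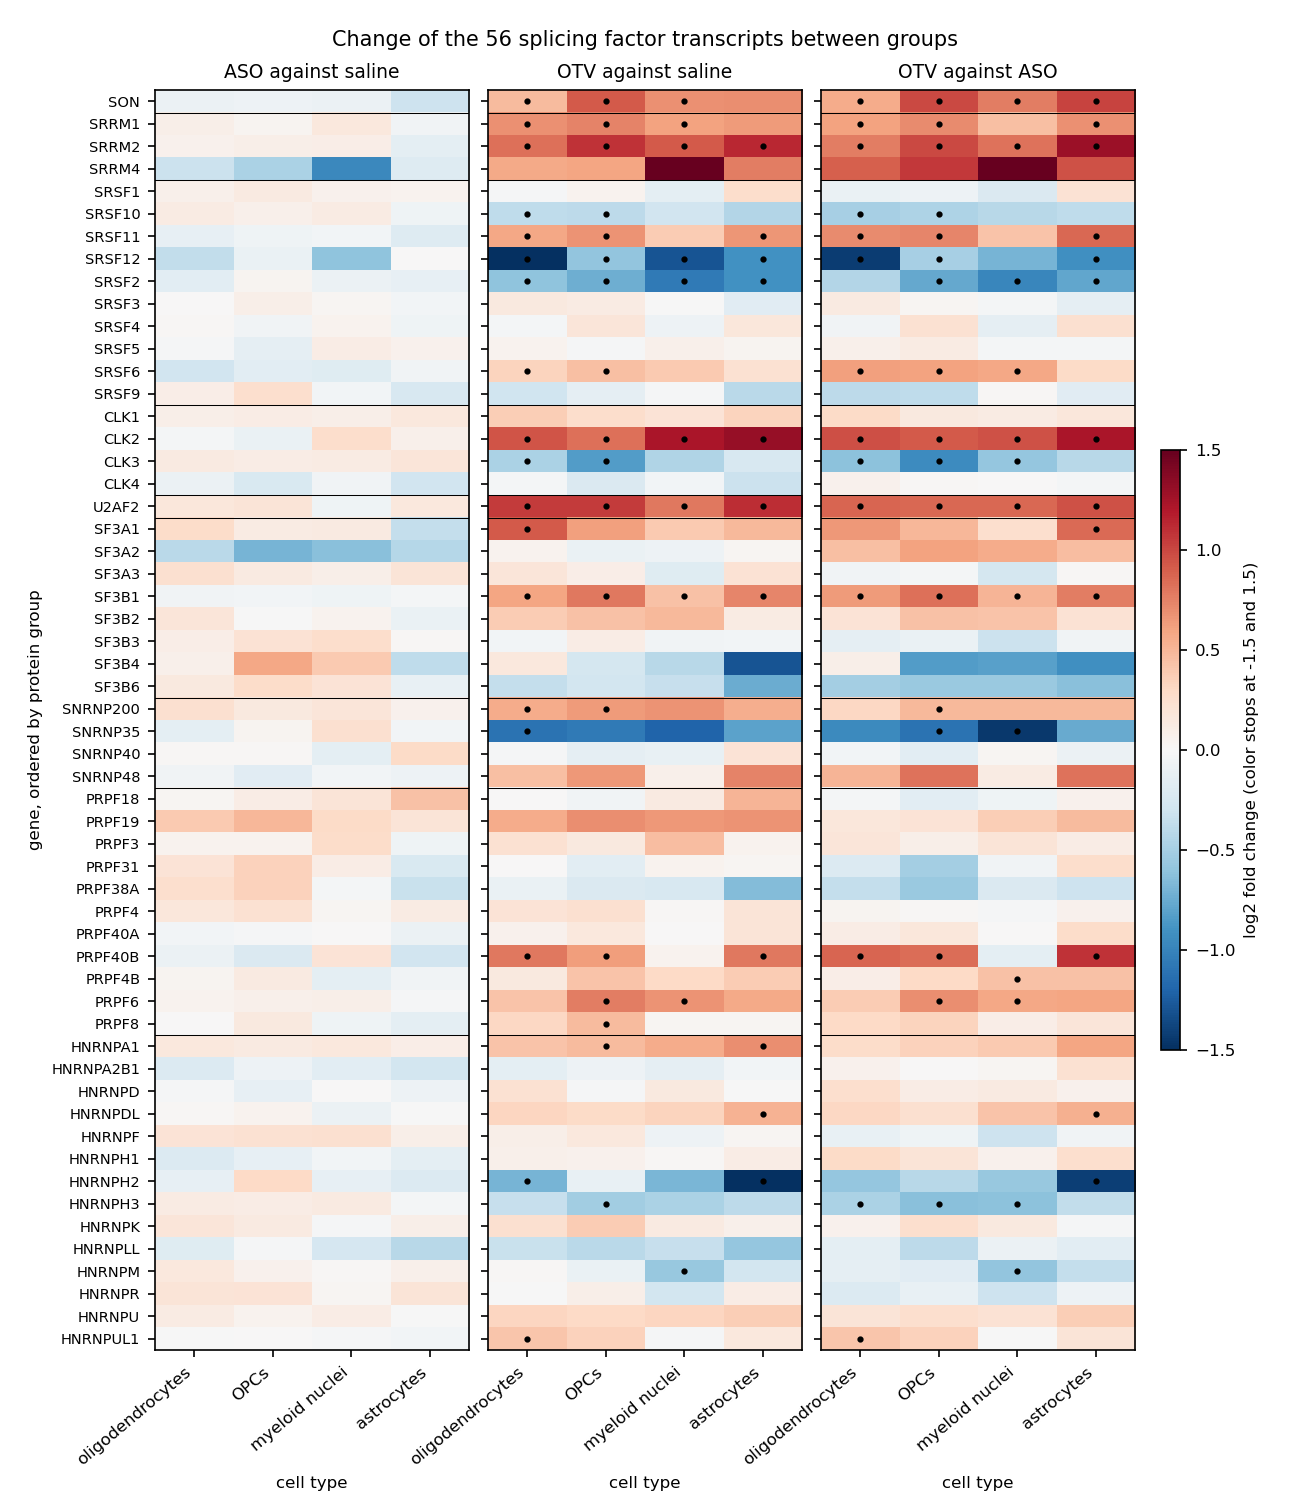
Log2 fold change (color, stopping at -1.5 and 1.5) of each of the 56 genes (rows, grouped by protein family) in 4 cell types (columns) for 3 comparisons: ASO with saline, OTV with saline, and OTV with ASO. Black dots mark adjusted p under 0.05 in edgeR's quasi-likelihood test; the ASO against saline panel holds 0 dots and each OTV panel 57.

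Of the 2 speckle scaffold proteins, SRRM2 rose in all 4 types. SRRM2 in oligodendrocytes stood at 239, 249 and 269.8 in saline animals, 296, 236 and 284 in ASO animals and 349, 463 and 496 in OTV animals (CPM, animals 1 to 3 in order). In astrocytes it stood at 320.4, 335 and 339.9 in saline animals, 335, 275 and 324 in ASO animals and 565, 663 and 902 in OTV animals. The OTV animals lay above all saline and ASO animals in both types, with animal 3 the highest. The log2 fold changes against saline were 0.83, 1.08, 0.92 and 1.14 in oligodendrocytes, OPCs, myeloid nuclei and astrocytes (SE 0.13, 0.17, 0.14 and 0.19), with edgeR adjusted p of 0.00283, 0.00134, 0.00300 and 0.00513. SON, the other scaffold protein, stood at 267, 335 and 254 in saline animals, 291, 291 and 259 in ASO animals and 434, 498 and 639 in OTV animals in OPCs. In myeloid nuclei it stood at 420.3, 461 and 412 in saline animals, 426, 393 and 436 in ASO animals and 610.5, 651 and 896 in OTV animals. The OTV animals were again above all others, and SON rose by 0.92 (SE 0.14, edgeR adjusted p = 0.00123) in OPCs and 0.68 (SE 0.14, edgeR adjusted p = 0.0142) in myeloid nuclei on the log2 scale. In oligodendrocytes the rise was 0.47 (SE 0.12, edgeR adjusted p = 0.0235), a call lost without saline animal 1, 2 or 3 or OTV animal 3. In astrocytes SON read 542, 548 and 524 in saline animals, 480.2, 428 and 443 in ASO animals and 632, 769 and 1155 in OTV animals. No OTV animal overlapped with a saline animal, yet the edgeR adjusted p was 0.0548 for a log2 fold change of 0.70. In the RefSeq table of assembly T2T-MFA8v1.1 SON overlaps DONSON and GART, and whether counting used strand is not stated in these sources.

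SRRM1, an SR-related coactivator that bridges enhancer-bound SR proteins and snRNPs, rose in oligodendrocytes, OPCs and myeloid nuclei. Its levels in oligodendrocytes were 102, 104 and 93.2 in saline animals, 100.95, 114 and 111 in ASO animals and 118, 154 and 198 in OTV animals. All OTV animals exceeded the saline animals there (log2 fold change 0.69, SE 0.16, adjusted p = 0.0159, edgeR). The log2 fold change was 0.75 in OPCs (edgeR adjusted p = 0.0140) and 0.61 in myeloid nuclei (edgeR adjusted p = 0.0486). All 3 calls ended with the regional score as a term in the model. The myeloid call was lost when any 1 of 8 animals was left out, the exception being OTV animal 1. In astrocytes the levels were 83.5, 86.5 and 75.8 in saline animals, 78.3, 79.6 and 89.8 in ASO animals and 85.7, 130.4 and 158 in OTV animals, where OTV animal 1 overlapped with the saline animals (log2 fold change 0.64, edgeR adjusted p = 0.0610). SRRM4 was called in no glial type, with log2 fold changes of 0.57, 0.59, 1.504 and 0.77 and adjusted p from edgeR of 0.450, 0.502, 0.249 and 0.470.

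**Figure D3:**
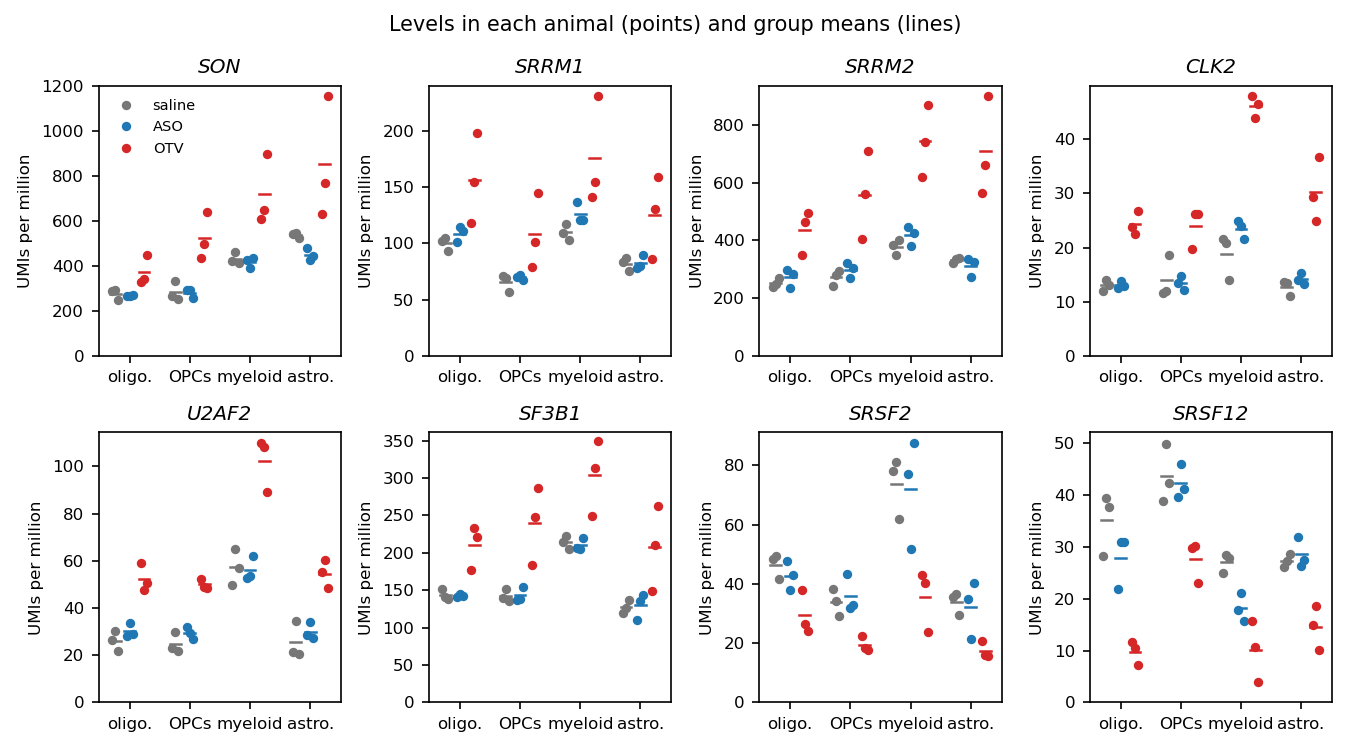
Levels (CPM within the type, vertical axes from 0) of 8 genes in oligodendrocytes, OPCs, myeloid nuclei and astrocytes; points are animals and lines group means for saline, ASO and OTV. SRRM2, CLK2, U2AF2 and SF3B1 have all OTV animals above all saline animals in each type, and SRSF12 has all OTV animals below them.

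Of the 10 SR proteins, 2 rose and 3 fell in oligodendrocytes, 2 rose and 3 fell in OPCs, 0 rose and 2 fell in myeloid nuclei, and 1 rose and 2 fell in astrocytes. Of all genes, 7.52%, 10.2%, 4.76% and 6.27% rose and 11.7%, 11.9%, 7.26% and 9.12% fell in those types, and with 10 genes the counts are not read as a difference from them. SRSF12, an SR protein that can oppose other SR proteins at splice sites, had the lowest log2 fold change of the 10 in oligodendrocytes, myeloid nuclei and astrocytes, and SRSF2 had the lowest in OPCs. In oligodendrocytes it stood at 28.2, 39.5 and 37.7 in saline animals, 21.8, 30.9 and 31.0 in ASO animals and 11.6, 10.6 and 7.20 in OTV animals. The OTV animals were all below the saline and ASO animals (log2 fold change -1.79, SE 0.24, adjusted p = 0.00137, edgeR). In OPCs SRSF12 stood at 38.8, 49.8 and 42.3 in saline animals, 39.6, 46.1 and 41.2 in ASO animals and 29.7, 30.2 and 22.97 in OTV animals, and the OTV animals were again lowest (log2 fold change -0.60, SE 0.15, adjusted p = 0.0182, edgeR). Its log2 fold change was -1.29 in myeloid nuclei (edgeR adjusted p = 0.0315) and -0.91 in astrocytes (edgeR adjusted p = 0.0228). The OPC call was lost without saline animal 2 or OTV animal 3. The myeloid call was lost without saline animal 1 or 2, ASO animal 1 or OTV animal 2 or 3, and the astrocyte call without any 1 saline animal or OTV animal 3.

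SRSF2 (SC35), another SR protein, also fell in the 4 types. In myeloid nuclei it stood at 78.1, 81.2 and 61.7 in saline animals, 77.1, 51.8 and 87.5 in ASO animals and 43.0, 40.3 and 23.9 in OTV animals, with the OTV animals below all saline and ASO animals (log2 fold change -1.06, SE 0.24, adjusted p = 0.0204, edgeR). In oligodendrocytes it stood at 48.2, 49.3 and 41.5 in saline animals, 47.6, 37.9 and 42.8 in ASO animals and 37.8, 26.4 and 24.2 in OTV animals. There all OTV animals were below the rest, with OTV animal 1 at 37.8 just under ASO animal 2 at 37.9, and the call (log2 fold change -0.60, SE 0.18, edgeR adjusted p = 0.0471) was lost when any 1 of 8 animals, all but OTV animal 1, was left out. The log2 fold change was -0.73 in OPCs and -0.90 in astrocytes, with edgeR adjusted p of 0.0170 and 0.0358. Those calls and the myeloid one each ended without 1 of 3 to 5 animals, OTV animals 2 and 3 among them. SRSF10, a splicing repressor activated when it loses phosphate, fell, with log2 fold changes of -0.38 in oligodendrocytes and -0.39 in OPCs (edgeR adjusted p of 0.0425 and 0.0399). Each of these calls was lost when any 1 of at least 6 animals was left out.

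SRSF11, an SR-related protein of the U1 interaction network, rose. It stood at 262, 242 and 253 in saline animals, 245, 224 and 244 in ASO animals and 293, 352 and 457 in OTV animals in oligodendrocytes, with all OTV animals above the rest (log2 fold change 0.58, SE 0.14, adjusted p = 0.0164, edgeR). That call ended without saline animal 2. In OPCs and astrocytes its log2 fold change was 0.67 and 0.67 (edgeR adjusted p of 0.0423 and 0.0450), and both calls ended without any 1 of 8 animals. SRSF6 stood at 95.6, 120.3 and 114 in saline animals, 97.8, 103 and 105 in ASO animals and 140.4, 139 and 157 in OTV animals in OPCs and rose there (log2 fold change 0.45, SE 0.11, adjusted p = 0.0125, edgeR), a call lost without saline animal 1. In oligodendrocytes it rose by 0.33 (edgeR adjusted p = 0.0344), and this call ended without any 1 of 8 animals. SRSF1, the founding SR protein, had log2 fold changes of -0.02, 0.05, -0.15 and 0.26 in the 4 types. SRSF3, which also acts in RNA export, had 0.15, 0.12, -0.0016 and -0.17, and SRSF5 had 0.05, -0.01, 0.08 and 0.04. None of these 3 was called in any type, and the smallest edgeR adjusted p among them was 0.310.

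The CLK kinases, which phosphorylate SR proteins and release them from speckles, differed from each other. CLK2 in myeloid nuclei stood at 21.5, 20.8 and 13.9 in saline animals, 24.9, 24.04 and 21.5 in ASO animals and 48.0, 43.8 and 46.4 in OTV animals. In astrocytes it stood at 13.7, 13.5 and 10.98 in saline animals, 13.9, 15.4 and 13.2 in ASO animals and 29.4, 24.8 and 36.7 in OTV animals. The lowest OTV animal exceeded the highest saline and ASO animal in both types. The log2 fold changes of CLK2 against saline were 0.95, 0.82, 1.22 and 1.30 in oligodendrocytes, OPCs, myeloid nuclei and astrocytes (SE 0.14, 0.23, 0.20 and 0.23), with edgeR adjusted p of 0.00190, 0.0259, 0.00488 and 0.00574. The OPC call was lost without saline animal 1 or 2 or OTV animal 2 or 3. CLK3 in OPCs stood at 38.5, 44.4 and 35.5 in saline animals, 46.7, 38.8 and 46.6 in ASO animals and 19.5, 21.3 and 24.04 in OTV animals. All OTV animals were below all others (log2 fold change -0.84, SE 0.15, adjusted p = 0.00255, edgeR). It also fell in oligodendrocytes (log2 fold change -0.48, edgeR adjusted p = 0.0206), a call lost without saline animal 2 or OTV animal 1. CLK1 was called in no type, with log2 fold changes of 0.37, 0.26, 0.21 and 0.33, nor was CLK4, with -0.03, -0.22, -0.04 and -0.32. That CLK2 and CLK3 moved in opposite directions is read from the separate calls.

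At the 3′ splice site, U2AF2, the large U2AF subunit that binds the polypyrimidine tract, rose in all 4 types. Its levels in oligodendrocytes were 26.3, 30.1 and 21.9 in saline animals, 28.2, 33.6 and 28.9 in ASO animals and 58.9, 47.7 and 50.5 in OTV animals. In myeloid nuclei they were 49.5, 64.9 and 57.1 in saline animals, 52.6, 53.6 and 62.2 in ASO animals and 109.8, 108 and 88.9 in OTV animals. The OTV animals lay above the saline and ASO animals in both, and here animal 3 was not the highest. The log2 fold changes against saline were 1.05, 1.05, 0.80 and 1.11 (SE 0.16, 0.15, 0.15 and 0.22), with edgeR adjusted p of 0.00218, 0.000655, 0.00860 and 0.0101. SF3B1, the SF3B subunit that holds the branch point, stood at 139, 151 and 136 in saline animals, 137, 138 and 155 in ASO animals and 184, 248 and 287 in OTV animals in OPCs. In oligodendrocytes it stood at 151, 142 and 139 in saline animals, 141, 145 and 142 in ASO animals and 177, 233 and 221 in OTV animals. OTV animals were the highest in both types. SF3B1 changed by 0.59, 0.79, 0.44 and 0.74 on the log2 scale (SE 0.11, 0.14, 0.13 and 0.21), with edgeR adjusted p of 0.00546, 0.00253, 0.0484 and 0.0413 in the 4 types. The myeloid call ended without any 1 of 8 animals, the exception being OTV animal 1, and the astrocyte call without any 1 saline animal, ASO animal 2 or OTV animal 2 or 3. Of the 8 SF3A and SF3B genes the only other call was SF3A1 in oligodendrocytes, at 10.7, 10.1 and 8.97 in saline animals, 11.04, 15.7 and 10.4 in ASO animals and 15.0, 18.2 and 22.04 in OTV animals (log2 fold change 0.92, SE 0.22, adjusted p = 0.0175, edgeR), which was lost without saline animal 2 or OTV animal 3.

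Among the 11 PRPF genes, PRPF40B, a U1-associated protein of early complexes, stood at 32.2, 30.5 and 30.9 in saline animals, 30.0, 31.5 and 28.7 in ASO animals and 46.8, 51.2 and 58.7 in OTV animals in oligodendrocytes. In OPCs it stood at 36.2, 37.4 and 39.0 in saline animals, 32.6, 36.2 and 31.8 in ASO animals and 49.1, 53.3 and 67.3 in OTV animals. All OTV animals exceeded all others in both types (log2 fold change 0.79, SE 0.11, adjusted p = 0.00190 in oligodendrocytes and log2 fold change 0.63, SE 0.14, adjusted p = 0.00911 in OPCs, edgeR). It rose in astrocytes too (log2 fold change 0.80, SE 0.22, adjusted p = 0.0355, edgeR), a call lost without saline animal 1 or 2, ASO animal 2 or OTV animal 1 or 3. In myeloid nuclei PRPF40B stood at 25.5, 31.7 and 43.2 in saline animals, 32.7, 42.0 and 42.6 in ASO animals and 27.0, 36.7 and 46.4 in OTV animals, with overlapping groups (log2 fold change 0.06, edgeR adjusted p = 0.921). PRPF6, which bridges the snRNPs of the tri-snRNP, stood at 60.7, 59.6 and 71.2 in saline animals, 72.4, 66.1 and 70.1 in ASO animals and 78.8, 107 and 133 in OTV animals in OPCs and rose there (log2 fold change 0.77, SE 0.17, adjusted p = 0.00752, edgeR). Its call in myeloid nuclei (log2 fold change 0.67, SE 0.17, adjusted p = 0.0281, edgeR) was lost without saline animal 1 or 2 or OTV animal 2 or 3. PRPF8, the core protein of the catalytic center, was called in OPCs only (log2 fold change 0.48, SE 0.14, adjusted p = 0.0298, edgeR), and the call ended without any 1 saline animal or OTV animal 3. PRPF4B, a kinase of tri-snRNP proteins, had log2 fold changes of 0.14, 0.43, 0.29 and 0.38 and was called in no type, with its smallest edgeR adjusted p of 0.0589 in OPCs.

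SNRNP200, the helicase that unwinds U4 from U6, stood at 27.5, 23.9 and 26.7 in saline animals, 26.7, 33.4 and 34.5 in ASO animals and 36.9, 35.5 and 38.4 in OTV animals in oligodendrocytes, with the OTV animals the 3 highest (log2 fold change 0.55, SE 0.13, adjusted p = 0.0203, edgeR). It also rose in OPCs, by 0.64 on the log2 scale (edgeR adjusted p = 0.0174). The oligodendrocyte call was lost without saline animal 2 or OTV animal 1 or 3, and the OPC call without any 1 saline animal or OTV animal 2 or 3. SNRNP35 stood at 32.7, 51.2 and 17.5 in saline animals, 26.8, 25.3 and 43.3 in ASO animals and 16.1, 14.9 and 15.0 in OTV animals in oligodendrocytes, where the OTV animals were lowest but saline animal 3 lay close to them. Its call there (log2 fold change -1.11, SE 0.34, edgeR adjusted p = 0.0476) was lost when any 1 of 7 animals was left out. The other 3 types had log2 fold changes of -1.06, -1.20 and -0.80 for SNRNP35, and none was called.

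Of the 14 hnRNP genes, edgeR called 1 higher and 1 lower in oligodendrocytes, 1 and 1 in OPCs, 0 and 1 in myeloid nuclei, and 2 and 1 in astrocytes. Over all genes 19.2%, 22.1%, 12.02% and 15.4% were called in either direction, and the hnRNP counts are near those shares. HNRNPA1, a repressor of exons, stood at 23.4, 38.8 and 32.9 in saline animals, 31.7, 40.1 and 35.6 in ASO animals and 47.4, 48.8 and 54.6 in OTV animals in astrocytes. The OTV animals were highest (log2 fold change 0.70, SE 0.21, adjusted p = 0.0491, edgeR). The rise in OPCs was 0.48 (edgeR adjusted p = 0.0416), and both calls ended without any 1 of 8 animals, the exception being saline animal 2. HNRNPH2, a relative of HNRNPH1, stood at 4.68, 6.22 and 7.14 in saline animals, 5.31, 4.39 and 6.34 in ASO animals and 1.74, 1.77 and 2.02 in OTV animals in astrocytes, with the OTV animals below all others (log2 fold change -1.61, SE 0.36, adjusted p = 0.0162, edgeR). That call ended without saline animal 2 or OTV animal 1 or 3. HNRNPH2 averaged 4.40 CPM over the 9 animals in astrocytes, and its highest type mean was 13.1 CPM. Its changes therefore rest on few UMIs. In oligodendrocytes it also fell (log2 fold change -0.70, edgeR adjusted p = 0.0440), a call lost without any 1 of 8 animals. HNRNPM stood at 289.6, 350.2 and 244 in saline animals, 328, 277 and 313 in ASO animals and 206, 215 and 195 in OTV animals in myeloid nuclei, the type where its level is highest, and the OTV animals were the 3 lowest (log2 fold change -0.57, SE 0.13, adjusted p = 0.0211, edgeR). This fall was lost without saline animal 1 or 2 or any 1 OTV animal. HNRNPH3 in OPCs (log2 fold change -0.52, SE 0.16, adjusted p = 0.0371, edgeR), HNRNPUL1 in oligodendrocytes (log2 fold change 0.41, SE 0.11, adjusted p = 0.0286, edgeR) and HNRNPDL in astrocytes (log2 fold change 0.53, SE 0.16, adjusted p = 0.0489, edgeR) were each lost with at least 4 of the 9 animals left out in turn.

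Most of the abundant hnRNP genes were not called. HNRNPA2B1 stood at 719, 727 and 717 in saline animals, 644, 607 and 676 in ASO animals and 595, 685 and 616 in OTV animals in oligodendrocytes, where saline animals were highest, and its log2 fold changes in OTV against saline were -0.14, -0.08, -0.13 and -0.04. HNRNPH1 had 0.08, 0.07, 0.02 and 0.11 and HNRNPK, a poly(C) binding protein, 0.24, 0.39, 0.13 and 0.07. HNRNPU, a scaffold attachment protein, stood at 321, 296 and 348 in saline animals, 307, 387 and 385 in ASO animals and 356, 390.1 and 422 in OTV animals in oligodendrocytes. All OTV animals were above the saline animals, but ASO animals 2 and 3 overlapped with them. The log2 fold changes of HNRNPU were 0.32, 0.30, 0.32 and 0.37, with edgeR adjusted p of 0.101, 0.123, 0.116 and 0.229.

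In OTV against ASO, 14 of 56 genes were called in oligodendrocytes (10 higher, 4 lower), 17 in OPCs (11 and 6), 13 in myeloid nuclei (8 and 5) and 13 in astrocytes (10 and 3). Over all genes 26.3%, 27.2%, 20.5% and 22.0% were called, with 11.2%, 12.7%, 9.42% and 9.51% higher and 15.1%, 14.4%, 11.1% and 12.5% lower. As shares of the 56 genes the calls in either direction are 25%, 30.4%, 23.2% and 23.2%, near those of all genes. This comparison uses the same OTV animals as that with saline, so it is no independent evidence. SON was called in all 4 types here, with log2 fold changes of 0.56, 0.99, 0.77 and 1.02 and edgeR adjusted p of 0.00893, 0.000640, 0.00553 and 0.0102. SRRM2 had 0.76, 0.99, 0.82 and 1.29, U2AF2 0.88, 0.86, 0.86 and 0.96, CLK2 0.97, 0.92, 0.96 and 1.22 and SF3B1 0.64, 0.83, 0.51 and 0.77, each called in all 4 types. SRSF6 rose by 0.62, 0.61 and 0.58 in oligodendrocytes, OPCs and myeloid nuclei (edgeR adjusted p of 0.00158, 0.00200 and 0.0160). CLK3 fell in oligodendrocytes (-0.62), OPCs (-0.95) and myeloid nuclei (-0.57), and HNRNPH3 in the same 3 types (-0.47, -0.63 and -0.61). SNRNP35 fell in OPCs (-1.10) and myeloid nuclei (-1.44). PRPF4B rose in myeloid nuclei by 0.44 (edgeR adjusted p = 0.0403), a call lost without saline animal 2, any 1 ASO animal or OTV animal 3. Without ASO animal 3, which stands apart in the regional score, the counts in the 4 types were 12, 13, 7 and 10. Without ASO animal 1 the counts were 4 in myeloid nuclei and 5 in astrocytes. Myeloid nuclei had 8 without ASO animal 2 and 7 without OTV animal 3, and astrocytes had 6 without OTV animal 3. Of the 57 calls, 29 in 14 genes were made in every fit. These were SON and SRRM2 in all 4 types, U2AF2 in all but astrocytes, PRPF40B in all but myeloid nuclei, CLK2 in oligodendrocytes and myeloid nuclei, and SRSF11 in oligodendrocytes and astrocytes. SF3B1, CLK3 and SRSF6 held in oligodendrocytes and OPCs, SRSF10 and SRSF12 in oligodendrocytes, and HNRNPH3, PRPF6 and SRRM1 in OPCs. The calls of SNRNP35, those of CLK3, SRSF6 and HNRNPH3 in myeloid nuclei and that of HNRNPH3 in oligodendrocytes were each lost in at least 1 fit. Shares of all genes called in these fits are not given here either.

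The summed level of the 56 genes was higher in OTV animals, and other measures of the libraries moved with it. Summed over the 56 genes, oligodendrocytes held 4898 to 5271 CPM in saline, 5155 to 5275 in ASO and 5328 to 6203 in OTV animals. Myeloid nuclei held 6004 to 6482, 6112 to 6638 and 6809 to 8200.2, OPCs 4414 to 4765, 4659.5 to 4795 and 4822 to 6387, and astrocytes 4932 to 5258, 4692 to 5146 and 5152 to 7212. OTV and saline animals overlapped in astrocytes alone. These sums hold MALAT1 in the denominator, and its share of UMIs was lower in OTV than in saline animals in each of the 4 types. Taken per 1000000 UMIs other than MALAT1, OTV animal 1 also fell within the saline range in oligodendrocytes (5546.6 against up to 5659.6) and OPCs (4972.9 against up to 4985.55), and the groups stayed apart in myeloid nuclei alone. Within the OTV group the sum was lowest in animal 1 and highest in animal 3 in each of the 4 types, which is also the order of falling median UMIs per nucleus. By total UMIs OTV animal 2 was below animal 3 in oligodendrocytes and astrocytes, and above it in OPCs and myeloid nuclei. Mitochondrial transcripts summed to 435 to 1047 CPM of OPCs in OTV animals against 44.0 to 191 in saline and 3.22 to 6.32 in ASO animals. In myeloid nuclei the ranges were 549 to 1424, 50.5 to 232 and 3.20 to 8.72, and in astrocytes 479 to 1798, 82.4 to 277 and 2.64 to 6.59. The mitochondrial order of the OTV animals, with animal 1 the highest, is not that of the summed splicing factors. Cell type markers moved too. Within OPCs, their own markers summed to 9981 to 10217 CPM in saline, 10302 to 11133 in ASO and 7358 to 8909 in OTV animals. Within myeloid nuclei their own markers summed to 5498 to 6253, 5401 to 6266 and 4299.8 to 5163. Within astrocytes they summed to 7418 to 18215, 6476 to 17058 and 6791 to 7610, with saline and OTV animals overlapping. Within oligodendrocytes they summed to 4979 to 6750, 6199 to 8633 and 5290 to 6509, with the OTV animals inside the saline range. Oligodendrocyte markers were higher in OTV than in saline animals within OPCs (359 to 598 in saline, 783 to 1033 in ASO, 696 to 1055 in OTV), myeloid nuclei (684 to 830.4, 878 to 1432 and 992 to 1579) and astrocytes (327 to 384, 421 to 675 and 451 to 695). Astrocyte markers within myeloid nuclei summed to 1892 to 2548 in saline, 783 to 1209.5 in ASO and 683 to 1616 in OTV animals. T cell markers within myeloid nuclei summed to 32.5 to 39.2, 16.4 to 132.8 and 14.6 to 23.3, and mural markers within astrocytes to 142 to 168, 183 to 199 and 113 to 131. Of the ribosomal protein genes tested, 0 rose and 3 of 36 fell in oligodendrocytes, 0 and 6 of 35 in OPCs, 1 and 2 of 35 among myeloid nuclei and 0 and 10 of 35 in astrocytes, with median log2 fold changes of -0.50, -0.55, -0.23 and -0.76. Beside the 11.7%, 11.9%, 7.26% and 9.12% of all genes that fell, the shares were lower in oligodendrocytes and myeloid nuclei and higher in OPCs and astrocytes, and these differences were not tested. The part of these measures in the calls was not tested. Cluster 8 of the oligodendrocytes held 2768 nuclei of low depth, and without it, an alternative added after seeing the data, the counts in OTV against saline were again 12 higher and 6 lower.

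**Figure D4:**
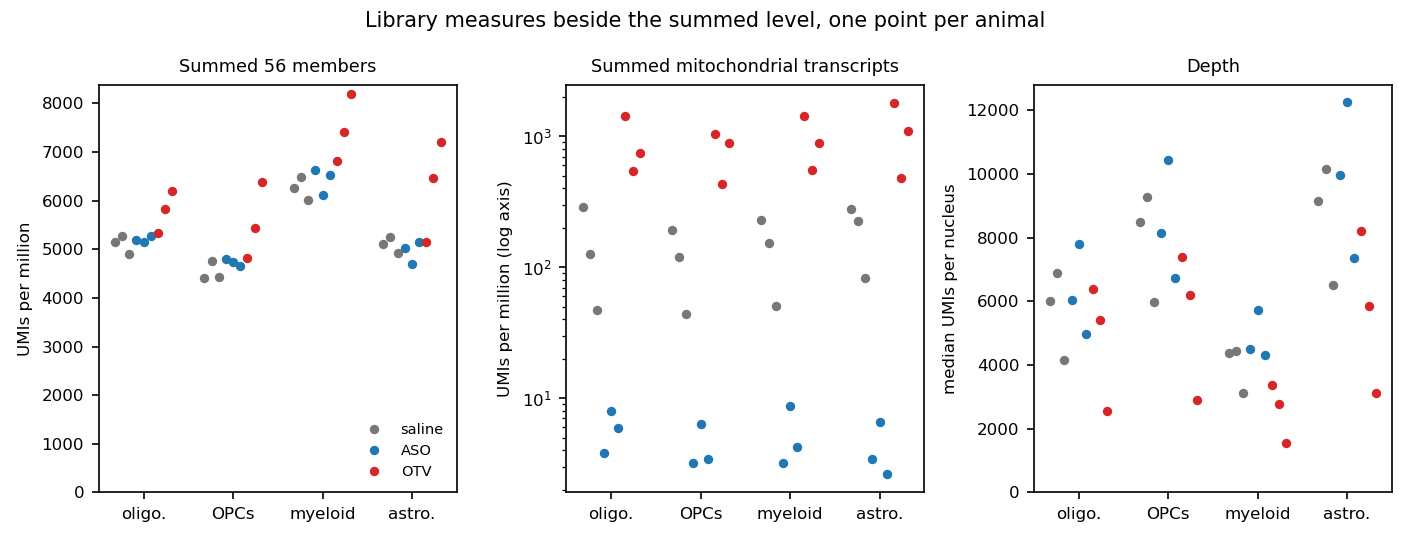
Summed level of the 56 genes (CPM within the type, axis from 0), summed mitochondrial transcripts (CPM, log axis) and median UMIs per nucleus (axis from 0) in each animal and cell type. OTV animals have the highest mitochondrial sums in every type, and in oligodendrocytes, OPCs, myeloid nuclei and astrocytes the OTV animal with the highest summed splicing factors, animal 3, has the lowest median UMIs per nucleus.

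Other genes of the pathway were read from lists chosen by name, with the same fits. The lists were made with earlier results of these data known, so their counts are no independent evidence. In ASO against saline none of their genes was called in any of the 4 types by edgeR. In OTV against saline, 13 of 30 other speckle and SR-related proteins rose in oligodendrocytes, 12 of 30 in OPCs, 5 of 29 in myeloid nuclei and 7 of 29 in astrocytes, and 0 fell. Of all genes, 7.52%, 10.2%, 4.76% and 6.27% rose in these types. The median log2 fold change of the list was 0.33, 0.43, 0.23 and 0.39, against -0.02, -0.01, -0.03 and -0.02 over all genes. Called in all 4 types were SRRT (ARS2), which links the cap complex to RNA processing, with log2 fold changes of 1.09, 1.21, 1.36 and 1.61, RBM10, an exon-skipping factor, with 0.92, 1.04, 0.91 and 1.05, ACIN1, an exon junction protein, with 0.54, 0.66, 0.44 and 0.72, and LUC7L, a U1-associated protein, with 0.52, 0.64, 0.62 and 0.64. These 4 were singled out after their values were seen. Of 26 spliceosome helicases and core partners, 8, 5, 1 and 1 rose and 0 fell, with medians of 0.23, 0.22, 0.17 and 0.26. PUF60, which acts with U2AF at the polypyrimidine tract, was called in each type, at 1.21, 1.34, 1.15 and 1.55. Among 7 SR kinases and SR-like regulators, SRPK3 rose in oligodendrocytes, OPCs and myeloid nuclei by 1.19, 1.53 and 1.41, DYRK1B rose in oligodendrocytes and OPCs by 0.90 and 1.06, and TRA2A fell in the same 2 types, by 0.33 and 0.35.

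The list of Sm and LSm proteins holds proteins of these rings and also SNRPA, SNRPA1 and SNRPB2, which are proteins of single snRNPs. It showed 0 higher and 1 lower of 15 in oligodendrocytes and 1 and 1 of 15 in OPCs. Counts were 0 and 1 of 15 among myeloid nuclei and 0 and 0 of 14 in astrocytes. The higher call in OPCs was SNRPA and the lower call in myeloid nuclei SNRPA1, so neither is of a ring protein. Median log2 fold changes of the list were -0.30, -0.17, -0.16 and -0.42. Of all genes, 7.52%, 10.2%, 4.76% and 6.27% were higher and 11.7%, 11.9%, 7.26% and 9.12% lower, and neither this list nor the next is read as differing from that. Tissue-specific splicing regulators showed 2 higher and 3 lower of 26 in oligodendrocytes, 1 and 2 of 24 in OPCs, 1 and 1 of 21 among myeloid nuclei and 0 and 0 of 21 in astrocytes. Among them NOVA1, a neuronal splicing regulator, fell by 0.51 in oligodendrocytes and 0.61 in OPCs, and ELAVL3, a neuronal RNA-binding protein, rose by 0.62, 0.76 and 1.42 in oligodendrocytes, OPCs and myeloid nuclei. Neuronal markers (RBFOX3, SNAP25, SYT1, GRIN2B and RBFOX1) summed to 179 to 1041 CPM of oligodendrocytes in saline and 193 to 247 in OTV animals, and to 86.2 to 825 and 207 to 395 in myeloid nuclei.

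The last comparison asked whether the transcripts vary with MALAT1 from nucleus to nucleus within a type. In each animal, nuclei of a type were put in 10 strata of depth and divided in each stratum at the median MALAT1 share, and UMIs other than MALAT1 were summed for the MALAT1-high and the MALAT1-low nuclei. The MALAT1 share was 1.36 to 1.74 times as high in the MALAT1-high nuclei of oligodendrocytes, 1.34 to 2.01 times in OPCs, 1.32 to 4.22 times in myeloid nuclei and 1.31 to 1.79 times in astrocytes. The summed level of the 56 genes was 1.00 to 1.05 times as high (median 1.02) in oligodendrocytes, 1.01 to 1.08 times (1.03) in OPCs, 1.00 to 1.05 times (1.02) in myeloid nuclei and 0.990 to 1.13 times (1.04) in astrocytes. It was above 1 in 9 of 9 animals in the first 3 types and in 7 of 9 for astrocytes. The 2 sums of an animal share its library, so edgeR was run over animals with the animal as a block. It called 2 of 56 genes in oligodendrocytes, 3 of 55 in OPCs, 0 of 54 in myeloid nuclei and 0 of 53 in astrocytes, beside 0.852%, 3.89%, 0.0811% and 0.362% of all genes tested. The remaining genes had too few UMIs for that fit. At an unadjusted p under 0.05 in edgeR, 3 genes in myeloid nuclei and 2 in astrocytes passed. Over all genes 689 of 9865 and 1201 of 10765 passed in those types. DESeq2's Wald test called 2, 3, 0 and 0.

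HNRNPA2B1 rose in MALAT1-high nuclei of oligodendrocytes and OPCs. Between MALAT1-low and MALAT1-high oligodendrocytes its level went from 729 to 808, 735 to 826 and 767 to 765 CPM in saline animals, 656 to 695, 607 to 661 and 656 to 777 in ASO animals, and 612 to 627, 693 to 726 and 606 to 663 in OTV animals. It was higher in 8 of 9 animals (log2 fold change 0.11, SE 0.02, adjusted p = 0.0120, edgeR). In OPCs it was higher in 9 of 9 (log2 fold change 0.12, SE 0.04, adjusted p = 0.0396, edgeR). PRPF4B went from 181 to 198, 179 to 193 and 164 to 196 CPM of oligodendrocytes in saline animals, 199.96 to 208, 162 to 173 and 197 to 216 in ASO animals, and 177 to 185, 176 to 198 and 199 to 214 in OTV animals. It was higher in 9 of 9 animals (log2 fold change 0.10, SE 0.02, adjusted p = 0.0170, edgeR), and in 8 of 9 in OPCs (log2 fold change 0.18, SE 0.04, adjusted p = 0.0162, edgeR). SON was called in OPCs, where it was higher in 9 of 9 animals (log2 fold change 0.15, SE 0.04, adjusted p = 0.0168, edgeR), and in oligodendrocytes its log2 difference was 0.01. Both calls in oligodendrocytes were lost without saline animal 1 (edgeR adjusted p of 0.0850 for HNRNPA2B1 and 0.0892 for PRPF4B). In OPCs, SON was lost without ASO animal 2 or OTV animal 2, PRPF4B without saline animal 2 or ASO animal 2 or 3, and HNRNPA2B1 without any 1 of 7 animals. With every nucleus thinned to 1000 UMIs in 1 random draw, and in the 3 saline animals alone, 0 genes were called in each type. In the thinned OPCs the log2 differences of HNRNPA2B1 and SON were -0.01 and -0.02.

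Per nucleus, the rank correlation of the summed 56 genes with the MALAT1 share was taken within each animal and type as a description, since nuclei of 1 animal share library and depth. With nuclei thinned to 1000 UMIs and the 56 genes taken as a share of UMIs other than MALAT1, Spearman's rho was 0.0847 to 0.1999 in oligodendrocytes (median of 9 animals 0.117), 0.0889 to 0.238 in OPCs (0.184), 0.0829 to 0.238 in myeloid nuclei (0.126) and -0.0507 to 0.176 in astrocytes (0.122). The count of these genes in such a nucleus is small, with a median of 5 in oligodendrocytes of saline animal 1, so many nuclei tie and are then ordered by the denominator, which falls as MALAT1 rises. Thinning the UMIs other than MALAT1 to 700 in every nucleus, a measure added after this was seen, gives all nuclei the same denominator. The correlation was then -0.00711 to 0.117 in oligodendrocytes (median 0.0281), 0.00843 to 0.172 in OPCs (0.0626), 0.0106 to 0.114 in myeloid nuclei (0.0739) and 0.0482 to 0.164 in astrocytes (0.0875). Taken as a share of all UMIs, with MALAT1 in the denominator, the medians were 0.00641, 0.0592, 0.0100 and 0.00698. Each value rests on 1 random draw of UMIs, so 20 further draws were made after seeing the data. The median at equal denominators then ran from 0.01999 to 0.0429 in oligodendrocytes, 0.0359 to 0.0907 in OPCs, 0.0193 to 0.0828 for myeloid nuclei and 0.0185 to 0.0941 for astrocytes, so the types cannot be ordered by it. In sparse counts such weak correlations are no finding. In the draw shown, the highest rho at equal denominators was that of OTV animal 3 in oligodendrocytes, OPCs and astrocytes. In neurons, over the 7 animals with at least 20 nuclei, rho lay between -0.0404 and 0.343.

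**Figure D5:**
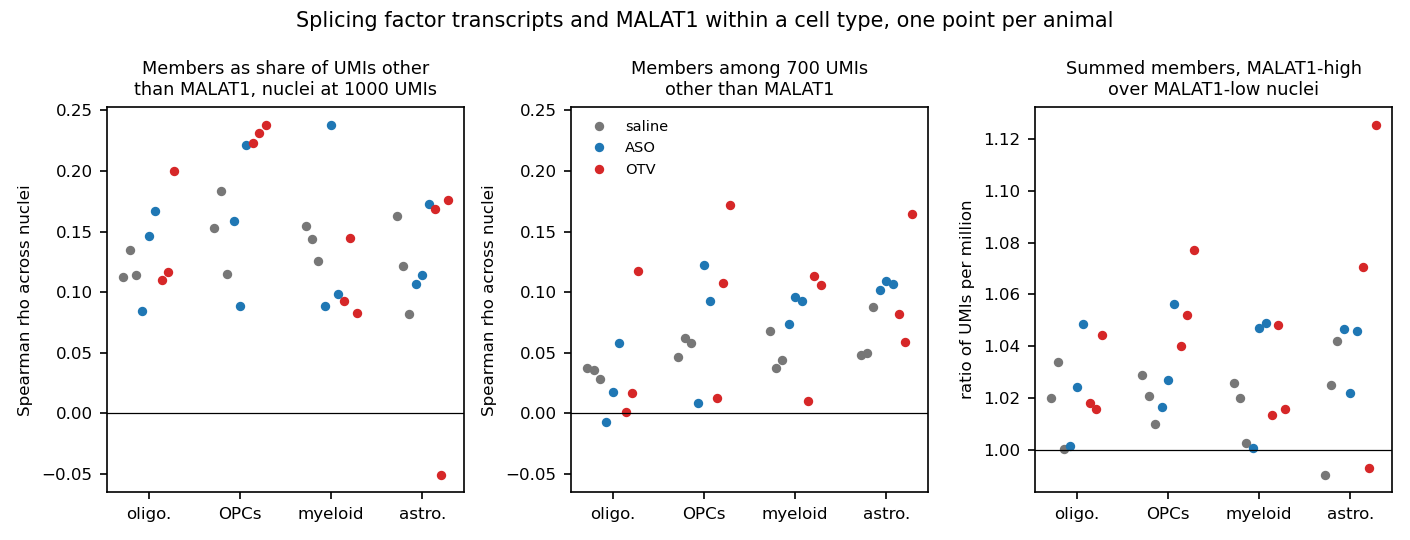
Relation of the summed splicing factor transcripts to MALAT1 within a cell type, with 1 point per animal colored by group: Spearman's rho across nuclei thinned to 1000 UMIs (left), rho with 700 UMIs other than MALAT1 in every nucleus (middle), and the ratio of the summed level in MALAT1-high to that in MALAT1-low nuclei (right). With equal denominators rho lies between -0.00711 and 0.172, and the ratios lie between 0.990 and 1.13.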

How the data were processed

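Nuclei from frozen thalamus were sorted by DAPI and sequenced on the 10x platform, per the labels' protocols. The authors deposited raw UMI counts per feature and nucleus and their own cell type of each nucleus. Cell Ranger 6.1.2, Seurat 4 and the build GRCh38.p13 appear, with no role, in the submitters' processing notes. These sources do not say whether intronic reads or strand were used. No genome sequence was used here.

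Counts were summed per animal and cell type (CPM: per 1000000 UMIs of the type) and fitted over all 9 animals with edgeR 4.0.16 (R 4.3.3): filterByExpr, TMM scaling, robust quasi-likelihood tests and Benjamini-Hochberg adjustment over all genes tested. Calls needed an adjusted p under 0.05. Alternatives were DESeq2 1.42.0 (size factors, Wald test), no filter, MALAT1 left out, equal totals, only the 6 compared animals, and leaving out each animal. Added after seeing the data were a regional score term (a planned form of the score is not reported here), a window of depth, a cluster left out, thinning to 700 UMIs, 20 further draws of each thinning and the interaction test. Rank correlations used scipy 1.17.1 in Python 3.11.15. The edgeR fit was checked on simulated data. The authors deposited a doublet score per nucleus, up to 0.865, with the caller not stated; it was not used as a filter and no doublet caller was run. Totals were 19981249 to 98850459 UMIs per animal.

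The genes and lists were chosen with earlier results of these data known. Genes named are a list of splicing factors and up to 10 called higher and 10 lower in the most cell types per comparison. The 8 with the greatest ratio between type means, at 20 CPM or more, are named too. Of 56 symbols, 55 are in the RefSeq table of assembly T2T-MFA8v1.1, where 9 overlap another protein-coding gene (HNRNPU, SON, CLK3, SRSF9, HNRNPH3, HNRNPF, CLK1, HNRNPK and SF3A1), so their counts are less certain.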

Additional observations from a re-analysis of the deposited data

Results flagged for a closer look

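The change of SRSF12 in OTV against saline differed between cell types by an interaction term of type and treatment (edgeR over all genes, animal as a block, added after seeing the data, adjusted p = 0.0164). Its log2 fold change was -1.79 in oligodendrocytes and -0.60 in OPCs, and in myeloid nuclei and astrocytes it was -1.29 and -0.91. It was the only one of the 56 genes called in this test, beside 3.53% of all genes. In edgeR 8 of 56 passed an unadjusted p under 0.05, and the number over all genes at that level is not given here.

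In OTV against ASO the same term was called for PRPF40B (edgeR adjusted p = 0.000965), again 1 of 56 genes, beside 10.4% of all genes. Its log2 fold change was 0.88 in oligodendrocytes and 0.84 in OPCs, and in myeloid nuclei and astrocytes it was -0.15 and 1.08. The term was not called for PRPF40B in OTV against saline (edgeR adjusted p = 0.0693). For SRSF12 it was not called in OTV against ASO (edgeR adjusted p = 0.0553). No fit with an animal left out was made for this test.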

How the results depend on the processing

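In OTV against saline, with the regional score as a term, the calls among the 56 genes numbered 9 in oligodendrocytes (18 in the reported fit) and 7 in astrocytes (11). With only the 6 compared animals they numbered 11 in oligodendrocytes, 5 in myeloid nuclei (10) and 5 in astrocytes, and with all animals at equal totals 5 in astrocytes. In OTV against ASO, astrocytes had 6 calls at equal totals and 8 with the 6 animals (13). Leaving out each animal in turn gave 7 to 15, 9 to 23, 4 to 11 and 3 to 13 calls in oligodendrocytes, OPCs, myeloid nuclei and astrocytes for OTV against saline, 11 to 20, 13 to 22, 4 to 16 and 5 to 15 for OTV against ASO, and 0 to 0 in each type for ASO against saline by edgeR. For the MALAT1 split, leaving out each animal gave 0 to 2, 0 to 3, 0 to 0 and 0 to 0. Thinning to 1000 UMIs gave 0 calls in oligodendrocytes (2) and OPCs (3), the saline animals alone 0 and 0, and a split within clusters 1 in OPCs. In thinned OPCs the log2 differences of HNRNPA2B1 and SON turned to -0.0141 and -0.0174. The cause of these changes was not tested. Shares of all genes called in the same refits are not given here, so the counts are not read as particular to the 56 genes.

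The median rank correlation with MALAT1 was 0.117, 0.184, 0.126 and 0.122 in the 4 types, in the same order. Thinned to 2000 UMIs in 1 draw it was 0.0810, 0.126, 0.0725 and 0.148. As a share of all UMIs it was 0.00641, 0.0592, 0.0100 and 0.00698, and with 700 other UMIs per nucleus 0.0281, 0.0626 and 0.0739 in the first 3. Over 20 further draws the median at 1000 UMIs ran from 0.108 to 0.133, 0.143 to 0.185, 0.111 to 0.1596 and 0.1155 to 0.1703, and at 2000 UMIs from 0.0800 to 0.104, 0.1198 to 0.163, 0.0846 to 0.135 and 0.0759 to 0.144. The first draw at 2000 UMIs thus lay below these ranges in myeloid nuclei and above them in astrocytes. No paired analysis was possible because no number in the labels ties an animal of 1 group to one of another. The 3 animals per group, and 1543 UMIs per myeloid nucleus in OTV animal 3, limit what the fits can call.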
